A study of Mus musculus with 14 samples.

Results

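The nuclear genes of oxidative phosphorylation were followed in the duodenal mucosa of mice after a HF or LF meal. They were taken by symbol from the annotation of the array: symbols starting with Nduf and a, b, c, s or v, the 4 Sdh genes, and symbols starting with Uqcr, Cox4 to Cox8 or Atp5. The rule found 90 genes of 18193 with a probe set that named 1 gene only, and each gene was represented by its probe set with the highest mean. Of the 90, 80 encode subunits of the 5 complexes (34 of complex I, 4 of complex II, 8 of complex III, 17 of complex IV and 17 of complex V). The other 10 matched the symbols without being subunits: 8 assembly factors of complex I (Ndufaf1 to Ndufaf8), the supercomplex factor Cox7a2l and Ndufa4l2, a paralog of a complex IV subunit.

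The groups were HF30min, HF1h and HF3h, LF30min, LF1h and LF3h, and Fasting. HF mice had received a meal with 60% of calories from fat, LF mice a meal with 10%, and both were sacrificed 30 min, 1 h or 3 h after its beginning. Fasting mice had no meal. All were male C57BL6 mice of 12 weeks that had eaten the LF diet and had then been fasted for 12 h, so the 7 groups shared that diet and that fast. Each group was 1 pool of RNA from 20 mice, from mucosa scraped off the duodenum, hybridised to 2 arrays. The spread between 2 arrays of a pool is technical, so every SD, interval and p below covers the array and not the mouse, and all comparisons with Fasting share the same 2 fasting arrays.

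In oxidative phosphorylation, complexes I and II pass electrons from NADH and succinate to ubiquinone, complex III hands them to cytochrome c, and complex IV reduces oxygen. Complexes I, III and IV pump protons across the inner mitochondrial membrane, and complex V, the ATP synthase, uses the gradient. A few subunits are encoded by mitochondrial DNA and were not analysed here. The absorptive enterocyte is rich in mitochondria, which supply ATP for nutrient uptake and for the resynthesis of dietary fat.

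The values are log2 intensities after the authors' Robust Multiarray Analysis. The medians of the 14 arrays lay between 4.47 and 4.55, with a correlation of 0.9958 to 0.9971 between arrays of the same pool. Of the 90 genes, 78 had a mean of at least 6. The 12 with a lower one were Cox4i2, Cox6b2, Cox7b2, Cox7c, Cox8b, Ndufa4l2, Ndufaf1, Ndufaf5, Ndufaf6, Ndufaf7, Ndufb1 and Ndufb4. Another 10 probe sets named a symbol that fits the rule together with another gene and were set aside. Among them were 2 for Ndufb4 and its copies with means of 9.71 and 9.88. Ndufa11 and Ndufs6 were named only by such probe sets and so are not among the 90 genes. The median SD between the 2 arrays of a pool was 0.026 to 0.049 over the 90 genes, depending on the pool, and 0.069 to 0.084 over all probe sets.

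Most of the 90 genes changed little after either meal. Over the 90 genes, the difference between the highest and the lowest of the 7 pool means had a median of 0.19 on the log2 scale, against 0.29 over all 45037 probe sets tested, and it ran from 0.083 to 0.82. All probe sets include dimmer ones, with a larger median SD between arrays (0.069 to 0.084, against 0.026 to 0.049). The range was not compared with that of brighter probe sets. No gene reached a 2-fold change in any of the 9 comparisons made (each fed pool with Fasting, and HF with LF at each time). In all 9, the 95% interval of every one of the 90 genes lay within a 2-fold change either way. The clearest exception to the flat picture was not a subunit but the assembly factor Ndufaf4. Most of the genes also shared a small lowering at HF3h.

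**Figure D1:**
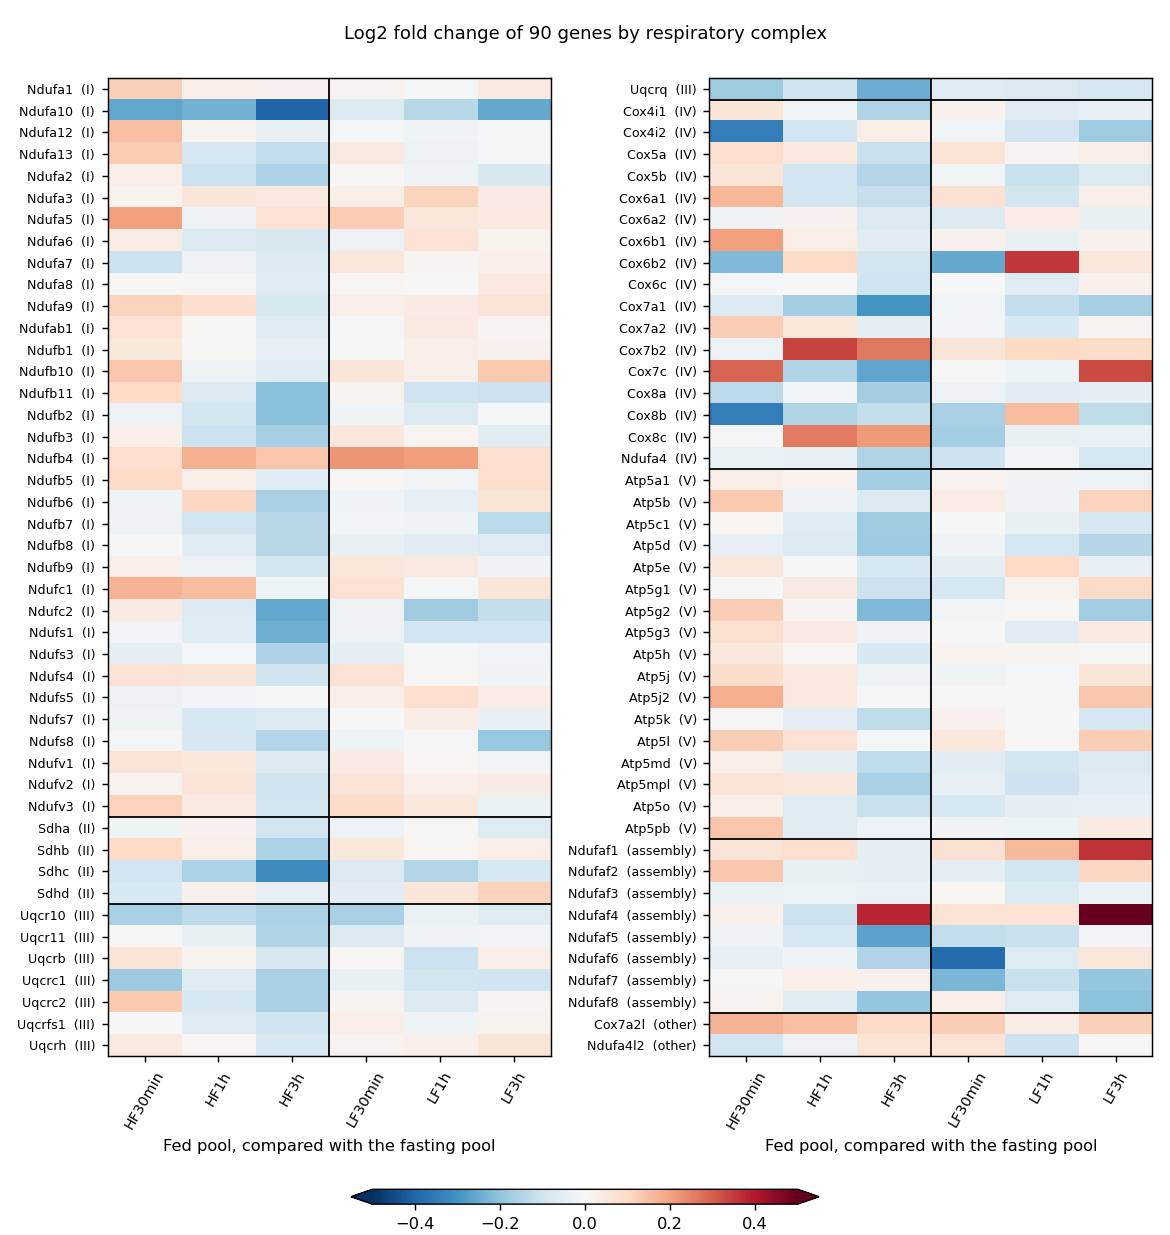
Log2 fold change of each of the 90 genes in the 6 fed pools against the fasting pool, HF pools left and LF pools right, with the complex of each gene in parentheses and black lines between complexes. Colours saturate at 0.5 either way. Most rows of the HF3h column are blue (78 of 90 genes lower), and Ndufaf4 is the strongest red cell (0.71 at LF3h).

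Adjusted p-values are from limma's moderated test with Benjamini-Hochberg adjustment over the 45037 probe sets, and a gene is said to have risen or fallen where its adjusted p was under 0.05. At LF3h 1 of the 90 genes rose and none fell, where 4.88% of all probe sets differed from Fasting (3.04% rose and 1.84% fell). At HF3h 1 rose and 1 fell, where 5.57% of all probe sets differed (2.52% rose and 3.06% fell). Limma called none of the 90 in the other 4 comparisons with Fasting or in the 3 of HF with LF. The share of all probe sets called was 0.97% at HF30min, 0.953% at HF1h, 0.469% at LF30min and 1.49% at LF1h. Between meals it was 0.442% at 30 min, 0.191% at 1 h and 1.82% at 3 h. A change of at least 2-fold was called for none of the 90, and for 0.151%, 0.107% and 0.393% of all probe sets at HF30min, HF1h and HF3h, 0.0799%, 0.224% and 0.226% at LF30min, LF1h and LF3h, and 0.0622%, 0.0244% and 0.195% between meals at 30 min, 1 h and 3 h.

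Before adjustment, p was under 0.05 for 8 of the 90 at HF30min (12.6% of all probe sets), 3 at HF1h (11.8%) and 15 at HF3h (17.3%). After the LF meal it was so for 1 gene at LF30min (7.9%), 2 at LF1h (11.6%) and 4 at LF3h (17%). For HF against LF it was so for 3 genes at 30 min (9.99%), 3 at 1 h (10.7%) and 11 at 3 h (15.3%). With a prior variance that depended on the mean level, limma called 8 genes at HF30min (3.61% of all probe sets), 1 at HF1h (2.62%) and 21 at HF3h (9.23%). It called 0 at LF30min (1.13%), 1 at LF1h (2.95%) and 6 at LF3h (8.38%). Between meals that model called 3 genes at 30 min (2%), 0 at 1 h (0.99%) and 13 at 3 h (4.4%).

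Ndufaf4, which helps to assemble an early part of complex I and does not remain in the finished enzyme, rose at 3 h after both meals. Along the HF meal its arrays read 8.27 and 8.29 in Fasting, 8.23 and 8.37 at HF30min, 8.19 and 8.16 at HF1h, and 8.65 and 8.67 at HF3h. Along the LF meal they read 8.37 and 8.32 at LF30min, 8.32 and 8.37 at LF1h, and 8.96 and 9.02 at LF3h. The 3 h arrays of both meals lay above every array of the 5 other pools, and the LF3h arrays above the HF3h arrays. Against Fasting, Ndufaf4 was 1.30-fold higher at HF3h (log2 0.38, SE 0.081, adjusted p = 0.0131) and 1.64-fold higher at LF3h (log2 0.71, SE 0.081, adjusted p = 0.000207). It was the 1 gene of the 90 called by the F test across the 7 pools (adjusted p = 0.00019), which called 8.82% of all probe sets. The difference of -0.33 between HF3h and LF3h did not pass the threshold (95% interval -0.51 to -0.16, adjusted p = 0.0596).

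The rise at LF3h was also seen with a second probe set of Ndufaf4 (mean 5.77), with a log2 change of 0.91 and an adjusted p of 0.0027. At HF3h that probe set gave 0.39 (adjusted p = 0.165). The call at LF3h held with any array left out (0.68 to 0.74). The call at HF3h was lost with either fasting array or either HF3h array left out, where the adjusted p was 0.0741 to 0.0993 while the change itself kept to 0.37 to 0.39.

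**Figure D2:**
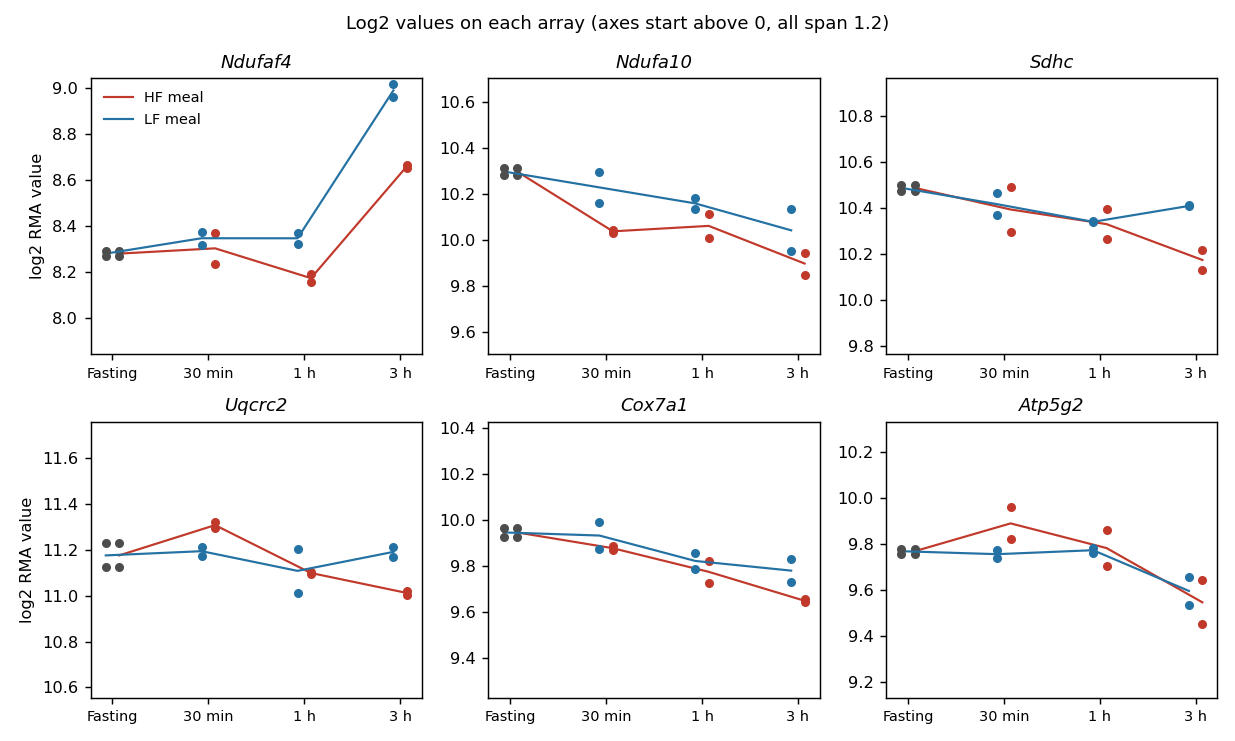
Log2 values on each array for Ndufaf4, Ndufa10, Sdhc, Uqcrc2, Cox7a1 and Atp5g2 along the time after the meal, with the fasting arrays in grey, HF in red and LF in blue. Points are arrays and lines join pool means. Ndufaf4 is highest at LF3h (8.96 and 9.02), and the HF3h arrays of Ndufa10 (9.95 and 9.85), Sdhc and Cox7a1 lie below the fasting arrays.

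The other assembly factors of complex I did not pass the test in any comparison. Ndufaf8, the brightest of them, read 9.20 and 9.28 at HF3h and 9.22 and 9.24 at LF3h, against 9.44 and 9.42 in Fasting. Both 3 h pools lay below Fasting there, the opposite side from Ndufaf4, with adjusted p of 0.338 and 0.309. Ndufaf1, Ndufaf5, Ndufaf6 and Ndufaf7 had means under 6.

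Of 39 assembly factors of the complexes outside the symbol rule, 1 rose and 2 fell at HF3h and 1 rose and 1 fell at LF3h. Over all probe sets 2.52% rose and 3.06% fell at HF3h, and 3.04% rose and 1.84% fell at LF3h. Tmem126b, which encodes another complex I assembly factor, rose by 0.38 at HF3h (adjusted p = 0.0107) and by 0.45 at LF3h (adjusted p = 0.00472), with a low mean of 5.60. Sco2, a copper chaperone of complex IV, fell by 0.31 at HF3h and by 0.32 at LF3h. Oxa1l, an insertase of the inner membrane, fell by 0.33 at HF3h.

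Ndufa10, an accessory subunit of complex I, was the 1 subunit gene that fell. Its arrays read 10.28 and 10.32 in Fasting, 10.04 and 10.03 at HF30min, 10.01 and 10.12 at HF1h, and 9.95 and 9.85 at HF3h. After the LF meal they read 10.16 and 10.30 at LF30min, 10.14 and 10.18 at LF1h, and 9.95 and 10.13 at LF3h. Every HF array lay below both fasting arrays, and the HF3h arrays lay below the LF3h arrays, by less than 0.01 at the closest pair. The change at HF3h was -0.40 (SE 0.091, 1.32-fold lower, adjusted p = 0.0191), and that at LF3h, -0.26, did not pass (adjusted p = 0.147). The HF3h call was lost with either array of Fasting or HF3h left out (adjusted p = 0.0603 to 0.139). A second and dimmer probe set (mean 5.16) lay 0.15 higher at HF3h (adjusted p = 0.535), and the mean of both probe sets gave -0.12 (adjusted p = 0.439).

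The remaining complex I genes stayed close to Fasting. The mean over the 34 genes was 10.08 ± 0.011 in Fasting, then 10.12 ± 0.017, 10.06 ± 0.034 and 9.98 ± 0.028 at HF30min, HF1h and HF3h (SD of the 2 arrays' means). After the LF meal it was 10.10 ± 0.0079, 10.08 ± 0.029 and 10.06 ± 0.033. The HF3h value was the lowest of the 7. There 26 of the 34 genes had their lowest pool mean, against 16.9% of all probe sets and 28.1% of those with a mean of at least 6. Ndufa1, the brightest, read 12.19 and 12.14 at HF3h, against 12.13 and 12.15 in Fasting, so that its arrays overlapped. Ndufc2 read 10.90 and 10.93 at HF3h, against 11.16 and 11.18 in Fasting. That difference passed limma's test with the prior variance that depended on the mean level (adjusted p = 0.000373). The 6 core subunits measured here, Ndufv1, Ndufv2, Ndufs1, Ndufs3, Ndufs7 and Ndufs8, most of which bind the flavin or the iron-sulphur clusters, were all lower in sign at HF3h and none was called.

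Complex II, the succinate dehydrogenase that also belongs to the citric acid cycle, had a mean of 11.13 ± 0.026 in Fasting, and 11.11 ± 0.035, 11.11 ± 0.021 and 10.98 ± 0.033 along the HF meal. Along the LF meal it had 11.10 ± 0.0087, 11.11 ± 0.023 and 11.13 ± 0.014. By this mean over 4 genes the HF3h pool was the lowest, while their median was 11.08 at HF3h and 11.10 at HF30min. In Sdha the arrays of HF3h (11.17 and 11.20) and LF3h (11.18 and 11.25) overlapped. Sdhc, a membrane anchor, read 10.13 and 10.22 at HF3h and 10.41 and 10.41 at LF3h, against 10.47 and 10.50 in Fasting. Its change of -0.31 at HF3h (95% interval -0.51 to -0.12) did not pass the threshold (adjusted p = 0.0648), and a second probe set of Sdhc gave -0.07. Sdhb, the iron-sulphur subunit, read 11.57 and 11.59 at HF3h and 11.77 and 11.77 at LF3h, against 11.72 and 11.75 in Fasting (HF3h against Fasting -0.16, adjusted p = 0.346).

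In complex III all 8 genes had both HF3h arrays below both fasting arrays, which was so for 24.5% of all probe sets and 38.7% of those with a mean of at least 6. Their mean was 11.16 ± 0.017 in Fasting, 11.13 ± 0.017, 11.11 ± 0.032 and 11.02 ± 0.034 along the HF meal, and 11.13 ± 0.017, 11.11 ± 0.017 and 11.15 ± 0.014 along the LF meal. Uqcrb, the brightest, read 13.46 and 13.53 at HF3h and 13.63 and 13.58 at LF3h, against 13.58 and 13.57 in Fasting. The core protein gene Uqcrc2 read 11.29 and 11.32 at HF30min and 11.02 and 11.00 at HF3h, against 11.12 and 11.23 in Fasting. Its arrays thus lay on both sides of Fasting at different times after the same meal, and neither change passed the test (0.13, adjusted p = 0.58, and -0.16, adjusted p = 0.367).

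Complex IV, cytochrome c oxidase, has subunits made by every cell and others whose isoforms are best known from muscle, lung or testis. All 10 general subunits had their HF3h arrays below their fasting arrays (24.5% of all probe sets and 38.7% of those with a mean of at least 6), with a median of -0.13, and none was called. Cox6a1, the brightest, read 13.45 and 13.41 at HF30min and 13.18 and 13.12 at HF3h, against 13.26 and 13.27 in Fasting. Both changes, 0.17 and -0.12, missed the threshold (adjusted p = 0.414 and 0.52).

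Of the 7 tissue isoforms, Cox4i2, Cox6b2, Cox7b2 and Cox8b had means of 4.97 or less. Cox6b2, known from testis, had the largest range of pool means in complex IV at this low level, with arrays of 5.30 and 5.36 at LF1h against 5.09 and 4.86 in Fasting (0.35, adjusted p = 0.404). Cox7a1, the heart and muscle isoform, was well measured, at 9.65 and 9.64 at HF3h and 9.73 and 9.83 at LF3h, against 9.93 and 9.96 in Fasting. Its change of -0.30 at HF3h was the largest fall in sign of complex IV and did not pass the threshold (adjusted p = 0.056). The summed linear intensity of 10 skeletal and heart muscle markers was 253 to 264 at HF3h and 237 to 250 in Fasting, and none of the 10 was called between these pools. Of these markers Acta1, the skeletal muscle actin, fell at LF3h (-0.42) and at HF30min (-0.56) against Fasting, and was 0.69 higher at HF3h than at LF3h (adjusted p = 0.0477, 0.0288 and 0.00553). Cox8c, another testis isoform, lay in the other direction, at 7.14 and 7.07 at HF1h and 7.09 and 7.03 at HF3h, against 6.86 and 6.83 in Fasting (0.26 and 0.21, adjusted p = 0.313 and 0.302). Cox6a2 stayed between 6.31 and 6.51 on all arrays. Ndufa4l2, known for its induction by hypoxia, had a mean of 4.72 and changed by at most 0.10 either way against Fasting.

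Among the means over all genes of a complex, that of complex V showed the widest swing along the HF meal. The 10 general subunits of complex IV, taken without the tissue isoforms, moved further by their median difference from Fasting. It was 0.079 and 0.078 on the HF30min arrays and -0.117 and -0.130 on the HF3h arrays. That of complex V went from 0.074 and 0.046 to -0.081 and -0.099. The mean of its 17 genes was 11.45 ± 0.024 in Fasting, then 11.51 ± 0.020, 11.45 ± 0.043 and 11.35 ± 0.0010 at HF30min, HF1h and HF3h, whereas along the LF meal it was 11.43 ± 0.028, 11.43 ± 0.017 and 11.44 ± 0.015. At HF30min 13 of the 17 genes had their highest pool mean, against 14.5% of all probe sets and 22.9% of those with a mean of at least 6. At HF3h 15 had their lowest, against 16.9% and 28.1%. All 17 were lower in sign at HF3h than in Fasting, against 49.7% of all probe sets and 56.0% of those with a mean of at least 6. In 12 the arrays did not overlap, against 24.5% and 38.7%. The 5 genes of the catalytic F1 head, Atp5a1, Atp5b, Atp5c1, Atp5d and Atp5e, had a median of -0.17 at HF3h, and the 9 genes of the stalk and membrane part -0.08. The 3 genes of the c ring encode the same mature protein. Of these, Atp5g2 read 9.45 and 9.64 at HF3h and 9.54 and 9.66 at LF3h, against 9.78 and 9.76 in Fasting (HF3h -0.22, adjusted p = 0.239). Atp5g3, the brightest gene of complex V, read 12.73 and 12.81 at HF3h, against 12.79 and 12.79 in Fasting (-0.02).

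**Figure D3:**
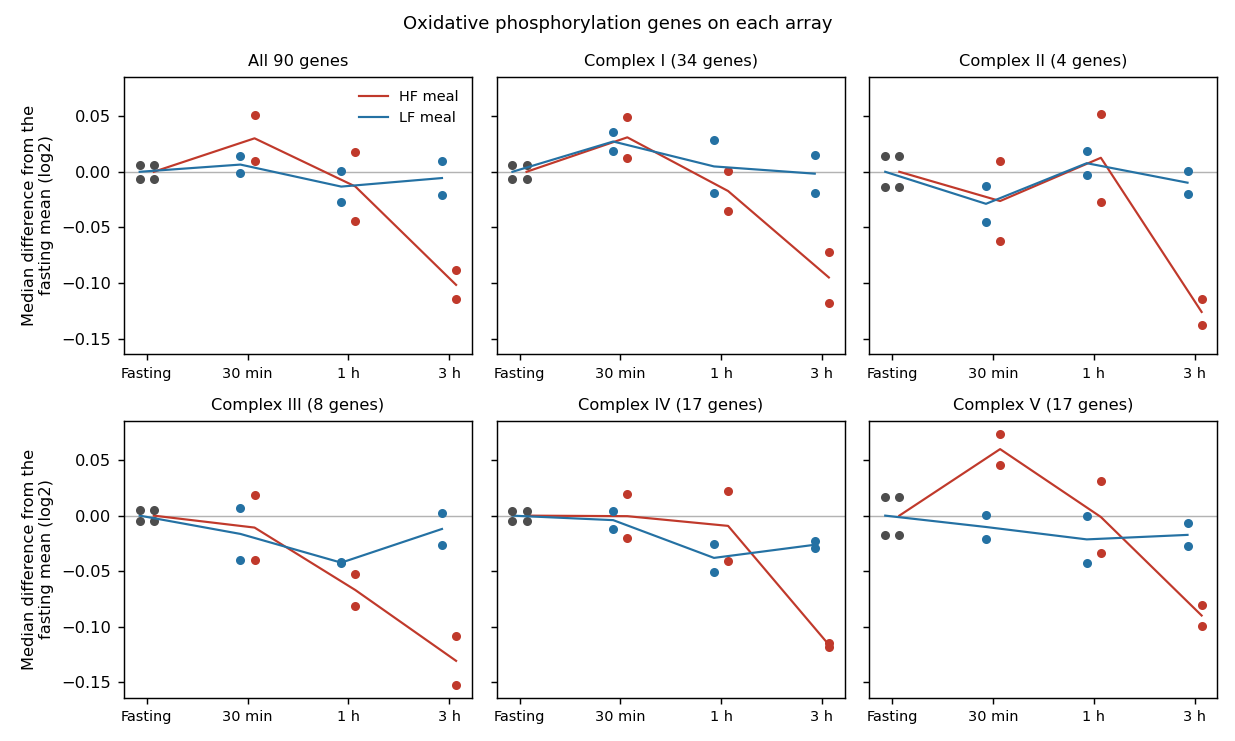
Median over genes of the log2 difference from the fasting mean, for each array (points) and pool (lines join the mean of the 2 arrays), for all 90 genes and for each complex. HF is red, LF blue and Fasting grey. Over all 90 genes both HF3h arrays are lowest (-0.089 and -0.115), and complex V is highest at HF30min.

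The lowering at HF3h was small and broad. The median log2 change of the 90 genes against Fasting was -0.10 at HF3h, where all probe sets had a median of 0.00 and those with a mean of at least 6 had -0.03. By complex it was -0.09, -0.13, -0.15, -0.11 and -0.11 for complexes I to V, and -0.05 for the 8 assembly factors. In the other fed pools the median of the 90 genes was 0.03 at HF30min, -0.02 at HF1h, -0.00 at LF30min, -0.02 at LF1h and -0.01 at LF3h. Of the 90 genes, 78 were lower in sign at HF3h, against 49.7% of all probe sets and 56.0% of those with a mean of at least 6. In 64 genes both HF3h arrays lay below both fasting arrays, which was so for 24.5% of all probe sets and 38.7% of those with a mean of at least 6. The lowest of the 7 pool means was at HF3h for 62 genes, against 16.9% of all probe sets, or 28.1% of the brighter ones.

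Array by array, the median difference of the 90 genes from their fasting means was -0.089 and -0.115 at HF3h. The other 12 arrays lay between -0.044 and 0.051. Without either array of the 2 pools in turn, 73 to 80 genes were lower in sign, with medians of -0.083 to -0.115. The 62 other probe sets of 41 of these genes with a mean of at least 6, which are not independent of the first since they read the same pools, were lower at HF3h in 46 cases, with a median of -0.08.

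The number of genes called at HF3h depended on how the variance was modelled and on which probe sets were tested. The fit with 1 prior variance called 1 fall (3.06% of all probe sets fell), and that with a prior that followed the mean level called 20 falls, or 22.2% of the 90 genes, against 5.24% of all probe sets and 14.1% of those with a mean of at least 6. When probe sets with a lower mean were removed first, 11 of the 78 genes left fell, or 14.1%, against 16.9% of the 13281 probe sets tested. The share of falls was therefore above or below that of probe sets with a mean of at least 6 according to the setting. That cut does not match the level of the 90 genes, whose median pool mean was 10.37 to 10.51.

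**Figure D4:**
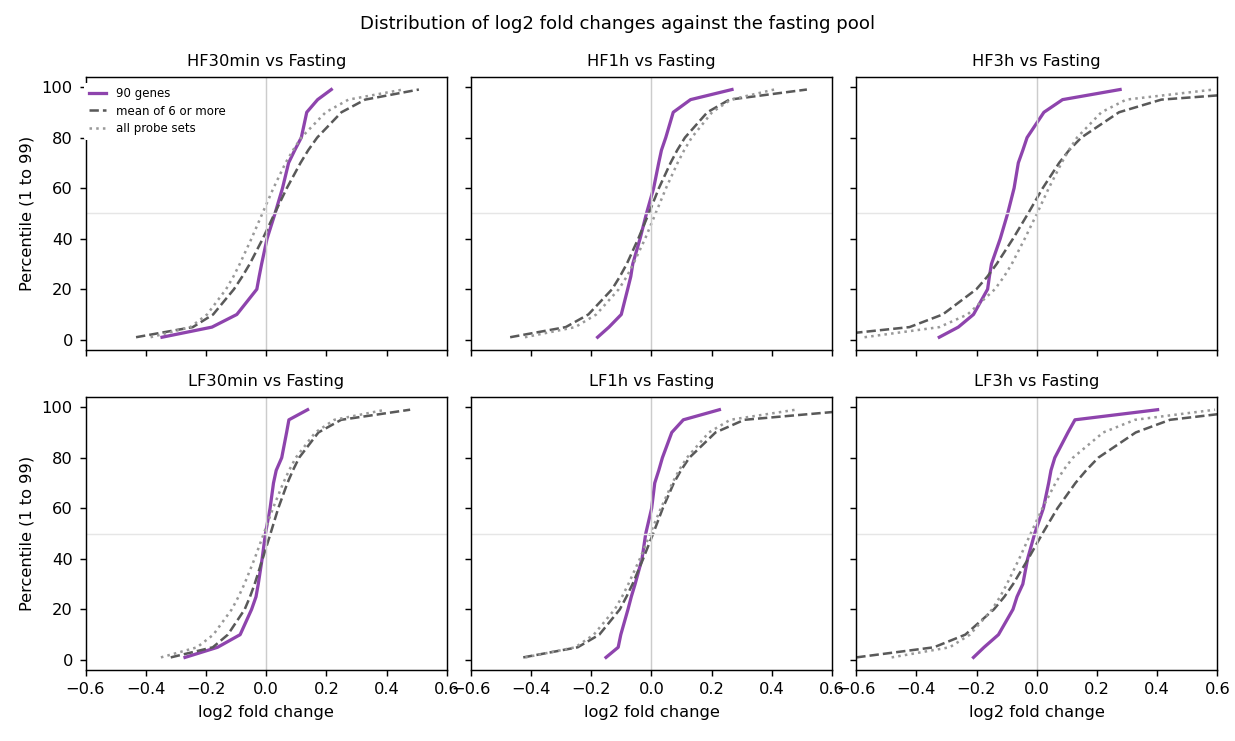
Percentiles 1 to 99 of the log2 fold change against Fasting for the 90 genes (purple), probe sets with a mean of at least 6 (dashed) and all probe sets (dotted), with HF pools above and LF pools below. The purple curve is steeper than the others in most panels. At HF3h most of it lies to the left of 0, with a median of -0.10 and a 90th percentile of 0.02.

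Between the meals, no gene of the 90 was called by limma. At 3 h the median of HF minus LF was -0.10, with 79 of 90 genes lower in sign after the HF meal (48% of all probe sets, 66.6% of those with a mean of at least 6). The median of those with a mean of at least 6 was -0.06, and centring the arrays on them gave -0.0323 for the 90 genes. In 60 genes both HF3h arrays lay below both LF3h arrays, against 24.1% of all probe sets and 43.9% of the brighter ones. The medians were -0.09, -0.17, -0.13, -0.07 and -0.07 for complexes I to V. At 30 min the median of HF minus LF was 0.04, and at 1 h 0.00. At 30 min complex V had the highest median, 0.09. In 12 of its 17 genes both HF arrays lay above both LF arrays, against 19.4% of all probe sets and 26.7% of the brighter ones.

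Genes of other steps of mitochondrial energy metabolism were read for comparison. None of 13 citric acid cycle genes was called in any comparison, and their median was 0.09 at HF30min, -0.06 at HF3h and 0.00 at LF3h. None of 16 carriers and transporters, which include cytochrome c, the adenine nucleotide carriers and the voltage-dependent anion channels, was called either (median -0.00 at HF3h). Of 45 genes of the large subunit of the mitochondrial ribosome, which makes the subunits encoded by mitochondrial DNA, 5 rose at LF3h and none fell (median 0.12, where 3.04% of all probe sets rose), among them Mrpl50 (0.54) and Mrpl47 (0.49). Of 29 genes of the small subunit 3 rose at LF3h and none fell (median 0.10, against the same 3.04%), Mrps22 by 0.56, Mrps6 by 0.53 and Mrps23 by 0.44. Of the probe sets with a mean of at least 6, a larger share, 12.0%, differed at LF3h in either direction (median 0.02). At HF3h 1 large-subunit gene rose and 1 fell, and 1 small-subunit gene rose, where 2.52% of all probe sets rose and 3.06% fell.

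Of 19 regulators of mitochondrial biogenesis, 2 fell at HF3h and 1 at LF3h, against 3.06% and 1.84% of all probe sets. Among probe sets with a mean of at least 6, 13.8% differed at HF3h and 12.0% at LF3h, in either direction. Polg2, the accessory subunit of the mitochondrial DNA polymerase, fell by 0.57 at HF3h (adjusted p = 0.00172) and by 0.45 at LF3h (adjusted p = 0.0101). It also fell at HF1h, with a log2 change of -0.44 (adjusted p = 0.0354), where 0.449% of all probe sets fell. Tfb2m, a transcription factor of mitochondrial DNA, fell by 0.49 at HF3h (adjusted p = 0.00536). Ppargc1a, the coactivator of mitochondrial genes, averaged 8.97 at HF3h and 9.45 at LF3h, against 9.18 in Fasting. It was lower at HF3h than at LF3h by 0.48 on the log2 scale (adjusted p = 0.00927), with Fasting in between and neither change against Fasting called.

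Markers of other tissues differed between the pools. Of 11 pancreatic acinar markers, 10 rose at HF3h (2.52% of all probe sets rose), with a summed linear intensity of 99597 to 100139 at HF3h against 65823 to 65914 in Fasting. At HF30min 9 of them fell (38658 to 38733), where 0.371% of all probe sets fell and 0.6% rose. The acinar sum was 92833 to 93470 at HF1h and 102229 to 102434 at LF1h. It was 61681 to 62812 at LF30min and 55110 to 56256 at LF3h. Of 9 stomach and Brunner gland markers, 5 rose at HF3h (6637 to 6693, against 1148 to 1180 in Fasting). At HF30min 7 of these rose (13691 to 13804). The stomach and Brunner gland sum was 10674 to 10680 at LF30min and 2674 to 2695 at LF1h. It was 1581 to 1604 at HF1h and 939 to 998 at LF3h. Of 5 pancreatic islet markers, 3 rose at HF3h (1788 to 1850, against 1030 to 1054): Ins2 by 1.14, Iapp by 0.93 and Ppy by 0.45. Of 6 adipocyte markers, 4 rose at HF3h (952 to 1012, against 547 to 563). Of 10 enterocyte markers, 1 rose at HF3h (93300 to 94040, against 88482 to 89195). The sum of 8 immune cell markers was 7163 to 7219 at HF3h and 7678 to 8205 in Fasting, with 7 of the 8 lower in sign and none called. The parietal cell sum (7 markers) was 941 to 1000 at HF3h and 1076 to 1094 in Fasting, the smooth muscle sum (10 markers) 1570 to 1601 and 1530 to 1582, the erythrocyte sum (3 markers) 38 to 44 and 40 to 40, and the brown adipocyte sum (4 markers) 41 to 45 and 41 to 43, with none of these called. The difference between the 3' and 5' probe sets of beta-actin was 0.43 at HF3h and 0.40 at LF3h, and 0.47 to 0.53 in the other pools. That of Gapdh was 0.015 at HF3h and -0.033 at LF3h, and 0.014 to 0.081 in the other pools. Against Fasting, the median log2 change of the oxidative phosphorylation genes was -0.10 at HF3h, 0.03 at HF30min, -0.02 at HF1h and -0.02 at LF1h. It was -0.003 at LF30min and -0.01 at LF3h. The part of the marker, beta-actin and Gapdh differences in the lowering at HF3h was not tested. Fewer cells of a type and less RNA per cell cannot be told apart in a pool.

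The promoters were read because these genes are known to share binding sites of NRF1 and GABPA (also called NRF2), which couple nuclear genes to mitochondrial biogenesis, and because most of them shifted the same way at HF3h. RefSeq promoter windows (GRCm38.p6, 250 bases before to 50 after the start) were matched by gene for 74 of the 90 genes. The NRF1 motif, GCGCA and GCGC with any 1 base between them, was found on either strand in 17 of the 74 (23.0%), against 5.2% of 27025 genes. The GABPA motif CCGGAAG was found in 19 (25.7%, against 9.9%), and 32 genes (43.2%) held 1 or both, against 14%. AAGATGG, a YY1 motif, was in 11 (14.9%, against 7.3%) and CAAGGTCA, bound by ESRRA, in 4 (5.4%, against 1.8%). CCAAT was in 32 (43.2%, against 41.1%), CACGTG in 6 (8.1%, against 8.1%) and TATAAA in 8 (10.8%, against 15.7%). The median GC content was 59.0% in these windows and 52.7% in all (the part of GC content in these shares was not tested). No 2 of these motifs overlapped in the windows of the 74 genes. A match is a description of letters and not a bound site.

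The 250 bases before the start are shown for the gene that rose most, the subunit gene that fell, and the brightest gene of complex IV, 5′ to 3′ on the strand of the gene, with matches in capitals. Ndufaf4 lies at chr4:24897833-24898082 (+ strand), Ndufa10 at chr1:92473759-92474008 (- strand) and Cox6a1 at chr5:115348959-115349208 (- strand).
Ndufaf4: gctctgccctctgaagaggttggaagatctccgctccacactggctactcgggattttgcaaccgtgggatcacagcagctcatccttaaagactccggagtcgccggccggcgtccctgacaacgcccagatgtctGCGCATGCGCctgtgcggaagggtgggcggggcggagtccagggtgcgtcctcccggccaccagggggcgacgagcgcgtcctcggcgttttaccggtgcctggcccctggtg
Ndufa10: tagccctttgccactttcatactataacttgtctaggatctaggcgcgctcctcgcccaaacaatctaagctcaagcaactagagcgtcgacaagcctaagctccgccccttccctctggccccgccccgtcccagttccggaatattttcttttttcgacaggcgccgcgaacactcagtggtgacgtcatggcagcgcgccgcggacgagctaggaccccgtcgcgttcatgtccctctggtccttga
Cox6a1: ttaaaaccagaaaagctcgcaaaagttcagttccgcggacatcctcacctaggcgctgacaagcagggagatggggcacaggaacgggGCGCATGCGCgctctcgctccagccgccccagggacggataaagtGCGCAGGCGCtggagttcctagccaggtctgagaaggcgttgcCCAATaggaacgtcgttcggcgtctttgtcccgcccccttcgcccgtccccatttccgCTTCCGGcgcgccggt
In Ndufaf4, GCGCATGCGC starts 113 bases before the start. Ndufa10, which fell, held none of the motifs. Cox6a1 held 2 NRF1 matches, 162 and 117 bases before the start, then CCAAT at 74 and the GABPA motif on the other strand (CTTCCGG) at 16. The pair of genes called thus differed in these letters as in direction, and 2 genes allow no statement on a relation.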

How the data were processed

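The log2 values deposited by the authors were background-subtracted and normalized by Robust Multiarray Analysis, and the log base was taken from that method. Its version was not given in the sources used here. The values of 14 arrays (2 technical arrays for each of 7 pools of 20 mice) were used without further scaling. Of 45101 probe sets, 64 controls were set aside and 45037 tested. The platform annotation named 1 gene for 34945 probe sets, several for 932 and none for 9160.

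The 7 pool means were estimated in a linear model with limma 3.58.1 under R 4.3.3 (7 residual and 6.4 prior degrees of freedom). P-values of each comparison were adjusted by Benjamini-Hochberg over probe sets, and no p was computed over the list of genes. Genes differed at an adjusted p under 0.05 and were modulated if they also changed at least 2-fold. The fit was tested on simulated data. The members and lists were chosen with earlier results of these data known. Named are all genes called in a comparison, the brightest gene and that with the largest range in each complex, and the tissue isoforms. For related lists, these are up to 4 called genes per comparison. Other names (the low genes, those set aside, core and F1 subunits, Sdha, Ndufc2, Ppargc1a in pools where it was not called) complete a count or give a limit.

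Alternatives were other variance models, a filter at a mean log2 value of 6, array centring, quantile normalization, fewer or averaged probe sets, subunits only, other thresholds, the replicate number as a block and each array left out. Centring on probe sets with a mean of at least 6 was added after the data were seen. Marker sums are sums of antilog values. Python 3.11.15, pandas 2.3.3 and matplotlib 3.10.9 were used for promoters and figures. The array number limits precision.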

Additional observations from a re-analysis of the deposited data

Results flagged for a closer look

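Ndufaf4 was singled out at 1 h because its arrays moved to opposite sides of Fasting after the 2 meals. It read 8.19 and 8.16 at HF1h and 8.32 and 8.37 at LF1h, against 8.27 and 8.29 in Fasting, so both HF arrays were lower and both LF arrays higher. The difference of HF1h minus LF1h was -0.17 on the log2 scale (SE 0.081) and did not pass limma's test (adjusted p = 0.472).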

How the results depend on the processing

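No result changed direction from one call to the opposite one. The counts of genes called moved most with the prior variance. With a prior that followed the mean level, 8 genes were called at HF30min (3.61% of all probe sets), 1 at HF1h (2.62%) and 21 at HF3h (9.23%). That prior gave 1 at LF1h (2.95%) and 6 at LF3h (8.38%). It gave 3 in HF30min against LF30min (2%), 13 in HF3h against LF3h (4.4%) and 35 across the 7 pools (17.7%). After a filter at a mean log2 value of 6, 13281 probe sets were tested. Of the 78 genes left, 2 were called at HF30min (10.7% of the probe sets tested), 12 at HF3h (29.5%) and 3 at LF3h (27.2%). In HF3h against LF3h 2 were called (13.2%), and 10 across the 7 pools (45.9%). With the probe sets of each gene averaged, 2 genes were called at LF3h and 1 in HF3h against LF3h. Without the probe sets that can match several transcripts, 2 were called at LF3h and 2 across the 7 pools. With the 80 subunits only, which leaves out Ndufaf4, 1 was called at HF3h, 0 at LF3h and 0 across the 7 pools. Centring each array on its median gave 2 in HF3h against LF3h, quantile normalization 2 across the 7 pools, an adjusted p under 0.01 gave 0 at HF3h, and a 1.5-fold minimum gave 1 modulated gene at LF3h (Ndufaf4). With each array left out in turn, the counts ran from 0 to 2 at HF3h, 1 to 2 at LF3h, 0 to 1 in HF3h against LF3h and 1 to 2 across the 7 pools. The count at HF3h was 0 without Fasting replicate 1 or 2 or HF3h replicate 1 or 2. At LF3h it was 2 without HF1h replicate 1 or 2. The HF3h against LF3h count was 1 without LF30min replicate 1 or 2 or HF1h replicate 1 or 2, and that across the 7 pools was 2 without LF30min replicate 1 or HF1h replicate 1. Unless given by the construction, the cause was not tested.

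The median log2 change of the 90 genes at HF3h was -0.0722 when arrays were centred on the probe sets with a mean of at least 6. This centring gave -0.0072 at HF30min, -0.0328 at LF30min, -0.0477 at LF3h, 0.0385 in HF1h against LF1h and -0.0323 in HF3h against LF3h. Centring on the array median gave 0.0208 at LF3h, -0.0304 in HF1h against LF1h and -0.13 in HF3h against LF3h, and quantile normalization gave -0.0096 at HF30min. Without the probe sets that can match several transcripts the median was 0.0193 at HF1h, 0.0205 at LF3h and 0.00055 in HF30min against LF30min. With arrays left out it ran from -0.044 to 0.018 at HF1h, from -0.0079 to 0.0143 at LF30min, from -0.0308 to 0.00031 at LF1h, from -0.0212 to 0.0099 at LF3h and from -0.023 to 0.031 in HF1h against LF1h. The sign of the median thus depended on these settings in all comparisons with Fasting but HF3h, and in HF1h against LF1h, and that at HF3h did not change in any setting run.

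Replicate numbers did not pair the arrays: over 21 pairs of pools, the correlation of replicate 1 minus replicate 2 was -0.187 to 0.151. With the replicate block, the counts at HF3h and LF3h stayed at 2 and 1, the median at HF3h at -0.10, and no call changed.

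With 2 arrays of 1 pool per group, no value bears on the spread between mice. The median half-width of a 95% interval was 0.18, larger than most differences described.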
